A study of Mus musculus with 16 samples.

Results

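Epidermal keratinocytes of progeria model mice were compared with those of their wild-type littermates at postnatal day 35. The comparison rests on 8 of the 16 mice of the study, which were those titled as day 35, with 4 mice in each group. Expression of 15830 genes was measured on exon arrays, on which several probe sets (short groups of probes, mostly 1 for each exon) read each gene, and a gene level is the mean log2 value of its probe sets. The other 8 mice, 4 of each genotype, were taken at day 24 and are used here only to ask whether a difference was already there at the earlier age.

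The HGPS mice carried K5tTA and tetop-LA G608G (F1-line VF1-07) on an FVB/N background, and so expressed human lamin A together with progerin. The keratin 5 promoter drives the tTA transactivator in basal keratinocytes, so that the transgene is on in these cells and not in the whole skin, and all HGPS mice come from 1 transgenic line. The wild-type mice were FVB/NCrl littermates without the transgenes. All mice of both genotypes received doxycycline at 100 µg/ml with 2.5% sucrose in the drinking water during embryogenesis, which keeps the transgene silent, and plain water from birth. The HGPS mice of day 35 were 4 males, and the wild-type mice were 3 males and 1 female, replicate 1. RNA came from epidermis that was floated off the skin with trypsin, so hair follicle cells, immune cells and remnants of dermis can be present in it. In such bulk RNA, fewer cells of a type and less RNA per cell cannot be told apart.

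Progerin is a shortened lamin A that stays farnesylated and accumulates at the nuclear lamina, the protein mesh under the nuclear membrane. The epidermis renews itself from basal keratinocytes, which are anchored to the basement membrane by hemidesmosomes. Their daughters move upwards, change their keratins and end as cornified cells, whose envelope is made of small proline-rich proteins, loricrin, involucrin and late cornified envelope proteins joined by transglutaminases. Keratinocytes under stress switch to keratins 6 and 16 and secrete antimicrobial proteins and cytokines of the interleukin-1 family.

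At day 35, 384 genes were higher in HGPS keratinocytes and 452 were lower, at an adjusted p under 0.05 and at least a 2-fold difference. These were 2.43% and 2.86% of the genes tested. Without the size limit, 3163 genes were higher and 2376 lower. For 824 of the 836 genes past both limits, the 4 HGPS and the 4 wild-type mice did not overlap. Among all 15830 genes tested, 5062 had no overlap. The 836 genes were picked by their difference in these same mice, so the count of 824 is not independent evidence. The median difference over all genes was 0.07 on the log2 scale. Levels varied more among the HGPS mice than among the wild-type mice, with a median SD over genes of 0.136 in HGPS and 0.101 in wild-type keratinocytes, and the SD was larger in the HGPS group for 10632 genes. Array correlations over genes ran between 0.987 and 0.994 within the HGPS group, between 0.992 and 0.996 within the wild-type group, and between 0.951 and 0.972 across the groups. Keratin 14 (Krt14) and keratin 5 (Krt5), which define the labelled cell type, were above 11 on the log2 scale in each mouse of both groups.

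The 5 largest rises were those of Sprr2d, Sprr2e, S100a8, S100a9 and Krt6b, and the 5 largest falls those of Lce1m, Igfbp3, Prss23, Mrgprb3 and Mt4 (plot of the largest differences by mouse). Sprr2d, a small proline-rich envelope protein, was at 12.23, 11.56, 12.01 and 11.93 in the HGPS mice, against 4.0, 3.46, 3.63 and 4.06 in the wild-type mice. The measured ratio was 283-fold (log2 8.15 ± 0.43 SE, adjusted p = 3.85e-09). The wild-type values lay near the bottom of the array's scale, and the deposited values carry no call of detection. A fold against levels under 5, here and for the genes that follow, is therefore a ratio of measured signals and not an exact ratio of RNA. Sprr2e followed with a 144-fold difference. Sprr2d and Sprr2e each rested on a single probe set. S100a8 and S100a9 form calprotectin, a calcium-binding alarmin that sequesters zinc and manganese from microbes. S100a8 was at 10.77, 9.68, 10.86 and 11.26 in HGPS and at 4.43, 4.08, 4.03 and 4.10 in wild-type keratinocytes (adjusted p = 1.19e-10). S100a9 rose 84.6-fold. All 3 probe sets of each calprotectin gene passed the test on their own.

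**Figure D1:**
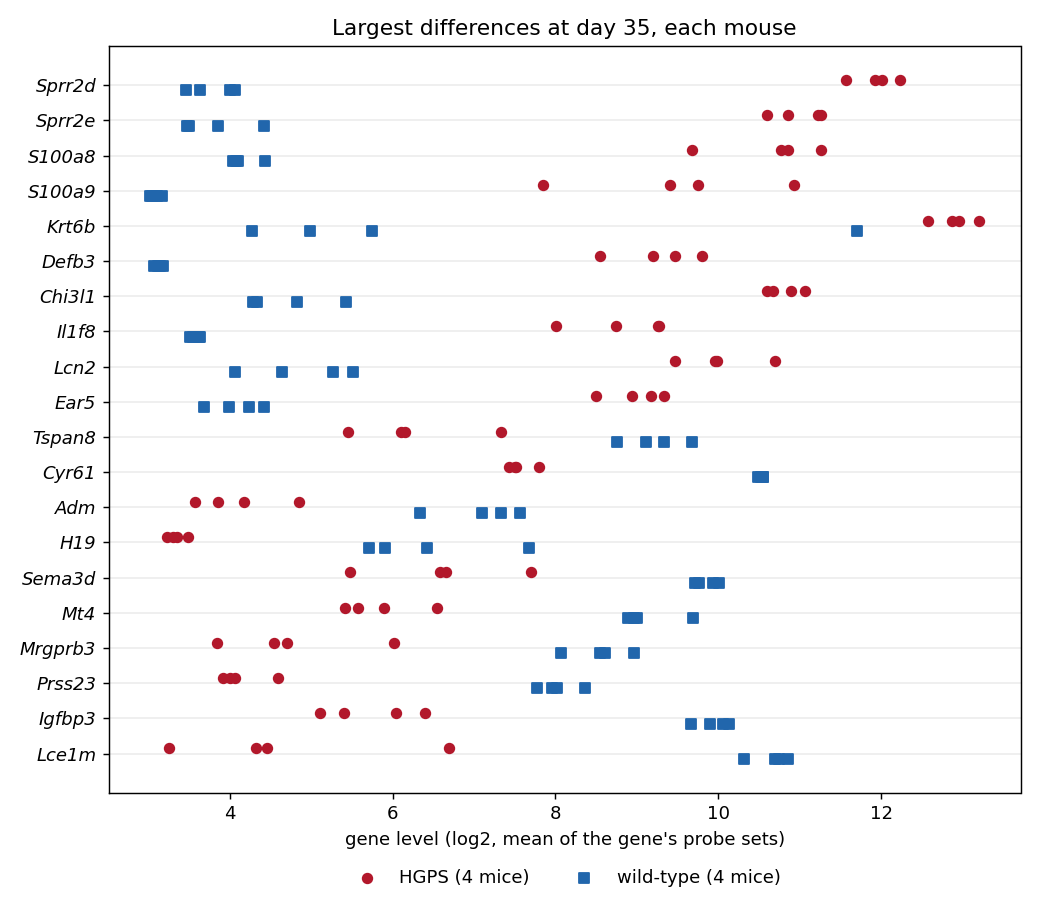
Gene levels (log2, mean of a gene's probe sets, horizontal axis) of the 10 genes with the largest rise and the 10 with the largest fall among the genes that passed the test at day 35. Circles are the 4 HGPS mice and squares, just below them, the 4 wild-type mice. The groups are apart for each of the 20 genes, which were picked by their difference in these same mice. For Krt6b, 1 wild-type mouse lies close to the HGPS mice.

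Among the 20 genes in that plot, Krt6b, a keratin of wounded and hyperproliferating epidermis, stood apart through 1 mouse. It was at 13.20, 12.58, 12.96 and 12.87 in HGPS, against 11.70, 4.27, 5.74 and 4.98 in wild-type keratinocytes. The wild-type mouse at 11.70 was replicate 1, the female. The difference of 6.23 ± 1.14 (SE) was 7.90 without that mouse, and within the mouse ID prefix that holds it the difference of 4.90 did not pass (adjusted p = 0.159). Krt6a, the near-identical neighbour, rose 4.47-fold, and Krt16, its usual partner, rose 5.29-fold. The probes of Krt6a and Krt6b may read each other's transcripts, which the files do not resolve.

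Of the 18 stress keratins and alarmins, 11 rose and 1 fell. The median difference of the list was 1.43, against 0.07 over all genes. Defb3, an inducible beta-defensin, was at 9.80, 8.55, 9.20 and 9.47 in HGPS and between 3.07 and 3.18 in the 4 wild-type mice, near the bottom of the scale, a measured ratio of 69.7-fold. Lcn2, which takes iron-loaded siderophores away from bacteria, rose 35.7-fold. Slpi, an inhibitor of leukocyte elastase, rose by 1.69 on the log2 scale. The exception was Defb1, the beta-defensin that epithelia make without a stimulus, which was lower in HGPS (-1.36, adjusted p = 0.00124). Krt17 differed by 0.69 and Serpinb2 by -0.88, below the 2-fold limit. S100a8, S100a9 and Lcn2 are made by neutrophils as well as by keratinocytes. The 9 neutrophil markers all averaged under 5 on the log2 scale. Their summed linear signal was 128 to 290 in HGPS and 83.8 to 97.4 in wild-type keratinocytes. Only 1 of them was called, Il8rb (3.71), and their median difference was 0.07, so the sum does not show a rise of the whole list. The part of neutrophils in the rises of S100a8, S100a9 and Lcn2 was not tested.

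Chi3l1, a chitinase-like secreted lectin, rose 68.2-fold, with all 9 of its probe sets past the test. Ear5, a ribonuclease of the eosinophil-associated family, rose 29.9-fold. The smallest p-values belonged to Sprr2b, Pla2g4e, Slc7a11, Lpo and Defb3, all higher in HGPS. Of the 2 probe sets of Sprr2b, 1 differed by 7.99 and passed, and the other differed by 0.20 and did not. Pla2g4e encodes a cytosolic phospholipase and had 7.41, 7.62, 7.36 and 7.20 in HGPS, against 3.42, 3.36, 3.24 and 3.32 in wild-type keratinocytes. Slc7a11 is the cystine-glutamate exchanger that feeds glutathione synthesis, and it rose 17.5-fold (adjusted p = 5e-12), with all 13 of its probe sets past the test. Lpo, lactoperoxidase, rose by 1.96 on the log2 scale.

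The envelope genes did not move together. Of 13 small proline-rich protein genes, 10 rose and none fell, with a median difference of 3.12. Of 22 other cornified envelope genes, 7 rose and 7 fell. The genes that rose included the transglutaminases Tgm1 and Tgm3, which cross-link the envelope, and Casp14, a caspase that matures with cornification and processes filaggrin. Tgm3 was at 9.71, 9.42, 9.38 and 9.49 in HGPS, against 6.29, 6.53, 6.43 and 6.79 in wild-type keratinocytes, a 7.95-fold difference. Casp14 rose 10.7-fold. Rptn, repetin, rose 24.3-fold, and Ivl, involucrin, rose 3.88-fold. In this list, loricrin and 6 genes of the Lce1 group fell. Lce1a2, which is not in the list, fell as well (-1.39). Lce1m had the largest fall of any gene, with 4.45, 4.32, 6.69 and 3.26 in HGPS, against 10.85, 10.70, 10.75 and 10.32 in wild-type keratinocytes. Its difference was -5.98 ± 0.53 (SE, adjusted p = 7.03e-07), on a single probe set. Lce1c was 7.06-fold lower, and Lor, the main envelope protein by mass, was 2.17-fold lower. Not every proline-rich gene rose, since Sprr1a was at a mean of 13 over all mice and differed by -0.12, and Sprr3 and Sprr4 did not pass either.

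The Sprr and Lce genes, Lor, Ivl and Rptn lie in the epidermal differentiation complex on chromosome 3. From S100a1 to S100a10, in RefSeq order, the arrays measured 44 genes, of which 16 rose, 8 fell and 20 were not called. Calls of the same direction often lay side by side (plot of the differentiation complex). Between Sprr2b and Sprr1b, all 10 measured genes rose. Between Lce1a1 and Lce1l, 6 of the 8 fell and none rose. The Sprr2 genes are near-identical copies, as are the Lce1 genes, so a probe set may also read a neighbour, and the levels of single copies are less certain than that of the group. Lce1a2 was the weakest of the Lce1 calls (-1.39, adjusted p = 0.0404) and did not pass under 8 of the alternatives tried. Beside the envelope genes, Pglyrp3, a peptidoglycan recognition protein, rose by 2.57.

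**Figure D2:**
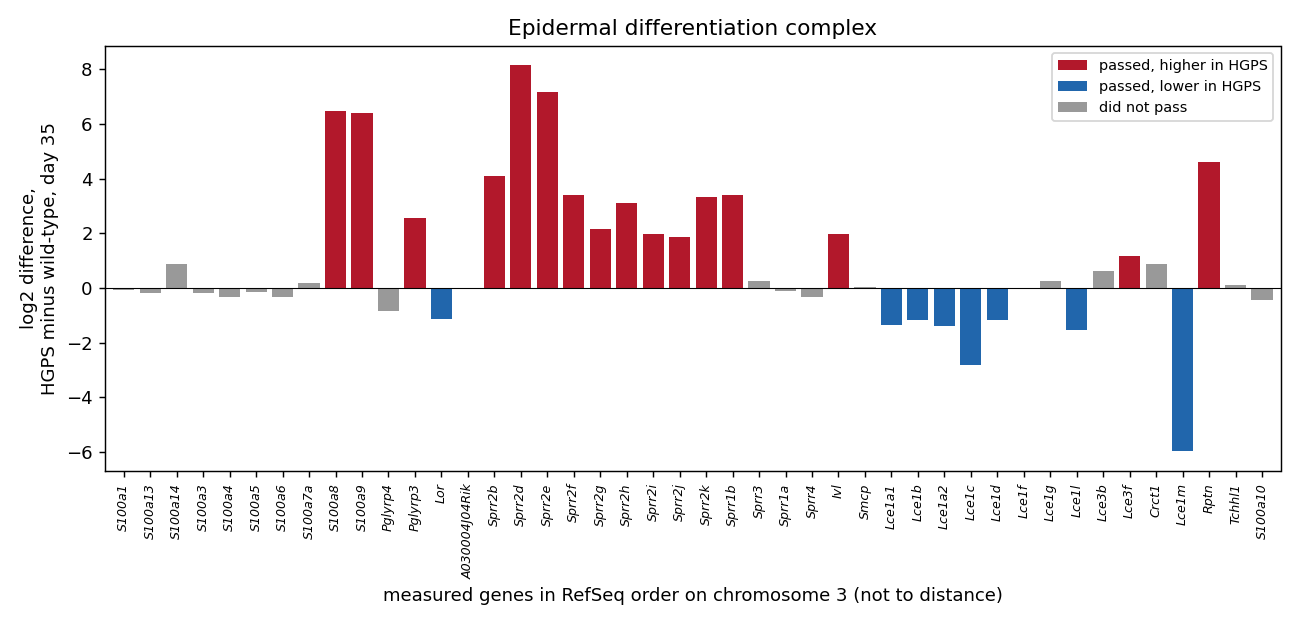
Log2 difference between HGPS and wild-type keratinocytes at day 35 for the 44 measured genes from S100a1 to S100a10, in their RefSeq order on chromosome 3. Bars in red passed the test and are higher in HGPS, bars in blue passed and are lower, and grey bars did not pass. The block of Sprr2 genes is higher throughout, and most Lce1 genes are lower.

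The promoters of these neighbours were searched for TGANTCA, the site of AP-1, a dimer of Fos and Jun proteins that is active in keratinocyte differentiation. The search covered the 250 bases before the RefSeq start on both strands, and the site reads the same on both. It was found in 7 of the 7 Sprr2 genes with a promoter entry, in 0 of 8 Lce1 genes, and in 6.75% of all 32851 promoters. Of all genes called higher, 15.4% of those with an entry held it, against 8.86% of those called lower and 7.22% of all genes tested. These shares are a description with no test, and neighbouring copies share their sequence. The windows below come from RefSeq (GRCm38.p6), are written 5′ to 3′ on the gene's strand, and have the site in capitals. Each Sprr2 copy with an entry has a site 193 to 198 bases before its start, and Sprr2k has a second one at 182 bases, which is also in capitals.
Sprr2d, chr3:92338932-92338968, plus strand: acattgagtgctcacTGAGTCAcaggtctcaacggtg
Sprr2e, chr3:92351935-92351971, plus strand: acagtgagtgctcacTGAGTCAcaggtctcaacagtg
Sprr2b, chr3:92316495-92316531, plus strand: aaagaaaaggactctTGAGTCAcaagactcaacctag
Sprr2f, chr3:92364975-92365011, plus strand: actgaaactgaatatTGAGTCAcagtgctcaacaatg
Sprr2h, chr3:92385472-92385508, plus strand: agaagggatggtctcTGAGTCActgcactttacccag
Sprr2i, chr3:92407783-92407819, plus strand: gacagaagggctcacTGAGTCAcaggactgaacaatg
Sprr2k, chr3:92432371-92432407, plus strand: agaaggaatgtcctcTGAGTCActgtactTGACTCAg
Sprr1b, chr3:92438869-92438905, minus strand: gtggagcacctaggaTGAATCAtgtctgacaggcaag
Ivl, chr3:92573830-92573866, minus strand: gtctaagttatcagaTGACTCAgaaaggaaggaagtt
Rptn, chr3:93393588-93393624, plus strand: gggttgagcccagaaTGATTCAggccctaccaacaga
Lor, chr3:92083169-92083205, minus strand: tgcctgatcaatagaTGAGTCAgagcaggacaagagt

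Of the genes printed above, Lor alone fell, so that the site was present with calls in either direction. The barrier lipid genes, which make the ceramides and lipid oxidation products between the cornified cells, had 3 of 16 higher and none lower. These were Alox12b (1.20), Smpd1 (1.16) and Ugcg (1.02), whose products are a lipoxygenase, acid sphingomyelinase and glucosylceramide synthase. In contrast, the spinous keratinocyte list had none of 11 past the limits. Krt10, the keratin of the layers above the basal one, differed by -0.11 (adjusted p = 0.4), and Krt1, its partner, by 0.34.

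Most cytokines of the interleukin-1 family rose, while 3 of their receptors fell. Of 16 members, 8 rose and 3 fell, with a median difference of 1.15. The 8 were the ligands Il1a, Il1b, Il18, Il1f6, Il1f8 and Il1f9 and the receptor antagonists Il1rn and Il1f5. Il1f6, Il1f8 and Il1f9 are the 3 interleukin-36 ligands, which keratinocytes release to act on themselves and on immune cells. Il1f8 was at 8.75, 8.01, 9.26 and 9.28 in HGPS, against 3.63, 3.55, 3.63 and 3.51 in wild-type keratinocytes, near the bottom of the scale, a measured ratio of 37.9-fold. Il1f6 rose 26.7-fold and Il1f9 rose 9.21-fold. Il1a, which keratinocytes store and release on injury, was at 7.02, 6.80, 8.11 and 7.16 in HGPS and at 4.03, 4.02, 3.52 and 3.70 in wild-type keratinocytes. The 2 antagonists rose less, Il1f5 by 2.38 and Il1rn by 1.41. On the receptor side, the decoy receptor Il1r2 was 4.05-fold lower, Il18r1 fell by 1.40, and the signalling receptor Il1r1 fell by 1.02. The interleukin-36 receptor Il1rl2 differed by 0.07 (adjusted p = 0.6) at a mean level of 9.2.

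Sites of the same AP-1 motif stood in the promoters of Il1f8, Il1rn and Il1a, 3 of the 7 rising family members with an entry. They are shown because these are a ligand, an antagonist and an alarm cytokine of 1 family.
Il1f8, chr2:24152922-24152957, plus strand: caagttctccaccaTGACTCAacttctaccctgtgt
Il1rn, chr2:24336704-24336740, plus strand: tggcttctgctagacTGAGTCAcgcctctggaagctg
Il1a, chr2:129309973-129309999, minus strand: aaaggcagagaagccTGACTCAgactt

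The enzymes that process such cytokines rose as well. Casp1, which cleaves pro-interleukin-1 beta and pro-interleukin-18, was at 7.98, 7.74, 7.57 and 7.87 in HGPS, against 5.06, 4.92, 5.05 and 4.76 in wild-type keratinocytes, a 7.16-fold difference. Casp4, the mouse caspase that senses intracellular lipopolysaccharide, rose 10.2-fold. With Casp14, 3 of 8 measured caspases rose and none fell. Among 5 gasdermins, Gsdmc1 (4.71) and Gsdma1 (1.43) rose. The caspases, the gasdermins and the other gene families named by symbol from here on were picked after their values had been seen, so their counts only describe them.

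Of 30 chemokines measured, 3 rose and none fell past both limits, and the median difference was 0.14. On average, 26 of the 30 lay under 5, near the bottom of the scale. Without the size limit, 10 were higher and 3 lower. Ccl20, which attracts cells that carry Ccr6, was at 8.59, 8.22, 9.30 and 7.92 in HGPS, against 5.84, 5.88, 5.67 and 5.54 in wild-type keratinocytes. Cxcl2, a neutrophil attractant, rose by 1.80 and Ccl22 by 1.29. The value of Cxcl2 was 1.15 and not past the test within 1 of the mouse ID prefixes (adjusted p = 0.125). Of 30 other cytokines and receptors, Il20ra, a receptor subunit for the interleukin-20 group, was the only call and was lower (-2.74). Il6, Il17a and Ifng lay below 4 on the log2 scale on average, and none of them passed the limits. In the NF-kB list of 22 genes, the coactivator Bcl3 rose by 1.64 and the inhibitor Nfkbie fell by 1.23. The inhibitor Tnfaip3 differed by -0.92 and Nfkbia by -0.51, and the subunits Nfkb1 (0.00) and Rela (-0.20) did not pass. In the other direction, the inhibitor Nfkbib (0.50), Tnip3 (0.45) and Tlr2 (0.60) were higher at an adjusted p under 0.05 and below 2-fold. Without the size limit, 4 genes of the list were higher and 3 lower. Of the ligands of the EGF receptor, Tgfa (1.81) and Epgn (1.30) rose, and the receptor Egfr itself differed by -0.47.

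Genes that hold the basal cell to its basement membrane fell. Of 14 basal keratinocyte genes, 9 fell and none rose, and the list had the lowest median of all lists of keratinocyte genes, -1.25. Col17a1, the transmembrane collagen of the hemidesmosome, was at 8.60, 8.71, 8.45 and 8.41 in HGPS, against 10.69, 10.67, 10.33 and 10.58 in wild-type keratinocytes. It was 4.06-fold lower, and 40 of its 41 probe sets passed on their own. Lamb3, a chain of the laminin that hemidesmosomes bind, was 3.21-fold lower. The integrins Itga6 (-1.23), Itgb4 (-1.26), Itga3 (-1.23) and Itgb1 (-1.52) and the plakin Dst (-1.43) fell, as did Krt15 (-1.61), a keratin of basal and bulge cells. The integrins and Dst are parts of the hemidesmosome or of the focal contacts. Cav1 (-1.47) was the remaining fall of the list. The other 5 genes of the list did not reach 2-fold. Krt14 overlapped between the groups (-0.14, adjusted p = 0.238), Krt5 was at 12.89, 12.90, 12.61 and 12.31 in HGPS and between 12.98 and 13.09 in wild-type keratinocytes (-0.34), and Trp63, the transcription factor of the basal state, differed by -0.27.

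In the wider basement membrane list, Col7a1, the anchoring fibril collagen (-1.33), and Col4a6 (-1.19) fell, 2 of 16 genes, and none rose. The desmosomes, which join keratinocytes to each other, had none of their cadherins or plaque proteins past the limits. Among 19 junction genes, the 2 calls were the gap junction proteins Gjb6 (2.33) and Gjb2 (1.80), both higher in HGPS. The plaque proteins Jup (0.13) and Pkp1 (-0.20) and the junction protein Perp (-0.14) did not pass.

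**Figure D3:**
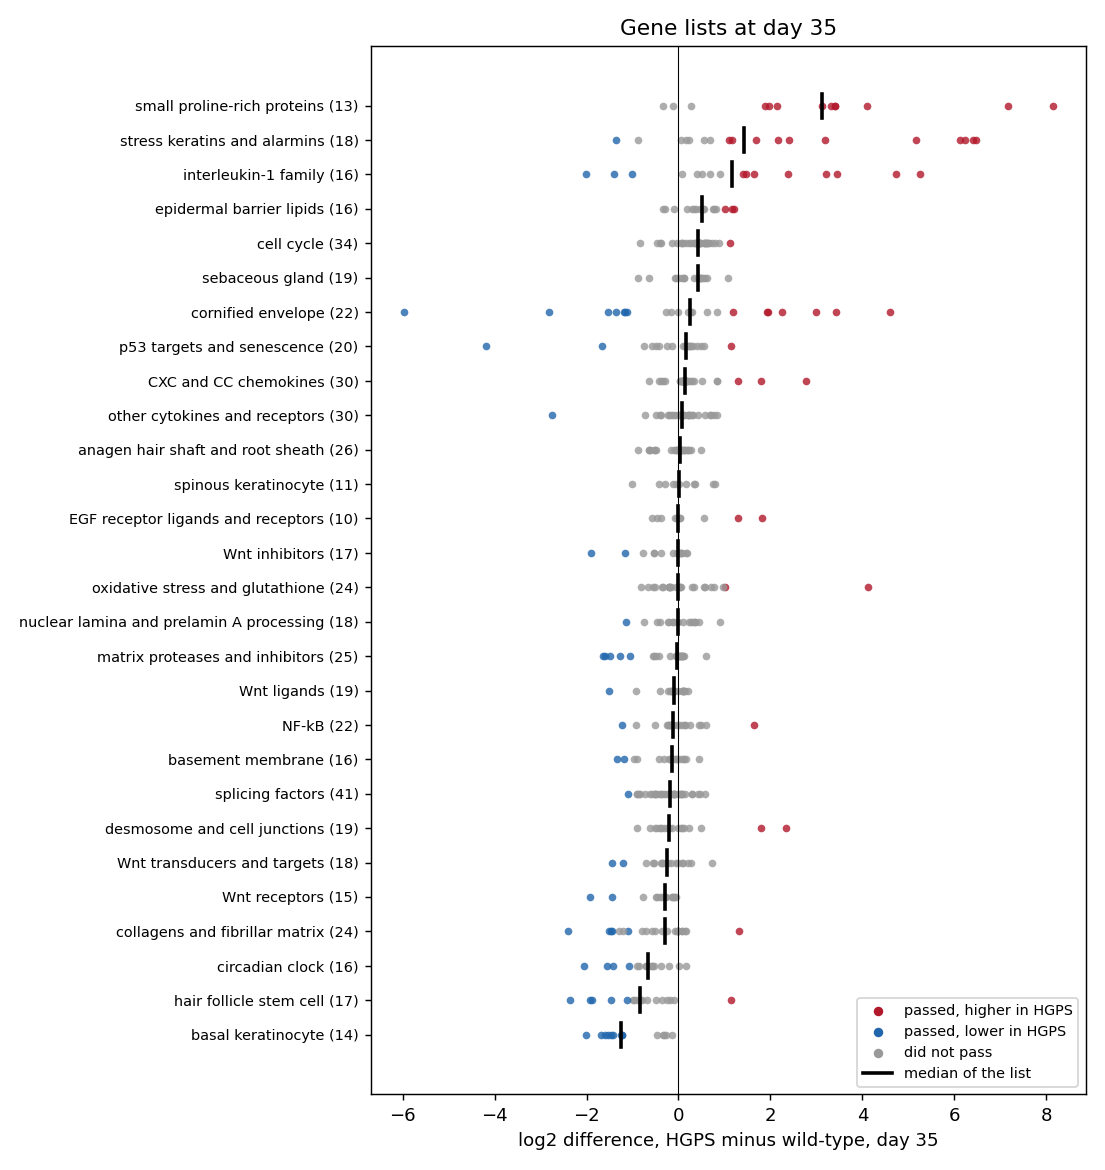
Log2 difference between HGPS and wild-type keratinocytes at day 35 for each member of 28 gene lists, with the number of measured members in brackets. Red points passed the test and are higher in HGPS, blue points passed and are lower, grey points did not pass, and the black bar is the median of the list. Small proline-rich proteins lie highest and basal keratinocyte genes lowest.

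Among matrix genes, most calls were falls. Of 24 collagens and fibrillar matrix genes, 5 fell and 1 rose. Tnxb, tenascin X, was at 4.16, 4.30, 4.28 and 4.24 in HGPS, against 6.90, 6.6, 6.31 and 6.83 in wild-type keratinocytes, a 5.33-fold difference. Tnc, the tenascin of wounds, rose 2.48-fold. Col6a1 (-1.45), Col12a1 (-1.10), Sparc (-1.52) and Postn (-1.46) fell. The fall of Postn did not pass without HGPS replicate 4 (-1.21), without wild-type replicate 1 (-1.27) or with the median over probe sets (-1.36). Of the fibroblast collagens, Col1a1 was at 8.55, 5.43, 5.25 and 6.24 in HGPS, against 7.81, 7.56, 7.81 and 7.15 in wild-type keratinocytes. HGPS replicate 1 was above all wild-type mice, and the other HGPS mice were below them. The difference of -1.21 did not pass with all mice (adjusted p = 0.095) and was -1.94 without HGPS replicate 1 (adjusted p = 0.000354). Col1a2 (-1.29) and Col3a1 (-0.79) had the same pattern and did not pass in the reported fit (adjusted p = 0.0806 and 0.095). With mice of the same replicate number paired they passed (adjusted p = 0.0406 and 0.0364). The labels do not state these pairs, which were assumed from correlations in the same data. The summed linear signal of 11 fibroblast markers, these collagens among them, was 846 to 1547 in HGPS and 1407 to 1847 in wild-type keratinocytes, and its part in the matrix values was not tested. The matrix proteases and their inhibitors had 5 of 25 lower and none higher, namely Mmp14, Mmp28, Adamts1, Timp2 and Timp3. The inhibitor Timp3 (-1.65) had the largest difference and the membrane protease Mmp14 (-1.05) the smallest of the 5.

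Several secreted matricellular proteins, of which Ctgf, Tgfbi and the thrombospondins were picked after their values had been seen, fell further. Cyr61, a target of the mechanosensitive coactivators Yap and Taz, was at 7.51, 7.43, 7.80 and 7.50 in HGPS, against 10.55, 10.52, 10.54 and 10.49 in wild-type keratinocytes (-2.97 ± 0.10 SE, adjusted p = 3.34e-11). Ctgf, its relative, was 5.42-fold lower. The thrombospondins Thbs1 (-2.51), which can activate latent TGF-beta, and Thbs2 (-2.58) fell, as did Tgfbi (-2.51), a TGF-beta-induced matrix protein. Igfbp3, which binds insulin-like growth factors, was at 5.11, 6.04, 6.40 and 5.40 in HGPS, against 9.90, 10.13, 9.66 and 10.06 in wild-type keratinocytes. This 18.3-fold difference was the second largest fall. The serine protease Prss23 was 14.8-fold lower, the receptor Mrgprb3 13.7-fold, the tetraspanin Tspan8 7.79-fold and the vasodilator peptide Adm 7.84-fold. The groups did not overlap for any of these 5 genes.

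In each of 4 lists of Wnt signalling, which keeps follicle stem cells and starts hair growth, 1 or 2 genes fell past both limits. None rose past them. Among 19 ligands, Wnt3 fell by 1.52, and it was at 6.19, 6.48, 6.74 and 6.20 in HGPS, against 8.21, 7.57, 8.25 and 7.66 in wild-type keratinocytes. Wnt10a differed by -0.93. Among 15 receptors, Lgr5 (-1.93) and Fzd8 (-1.45) fell. Among 17 inhibitors, Sfrp1, a secreted decoy, was 3.71-fold lower, and Rnf43, a ligase that removes Frizzled receptors, fell by 1.17. Of the 18 transducers and targets, Axin2, the standard target of the pathway, was at 5.15, 5.13, 5.16 and 5.03 in HGPS and at 6.19, 6.24, 6.33 and 6.55 in wild-type keratinocytes. Myc fell by 1.44, and Ctnnb1, beta-catenin itself, differed by 0.20. The 4 Wnt lists together had 0 genes higher and 7 lower, while 2.43% of all genes tested were higher and 2.86% lower. Without the size limit, the inhibitor Dkk4 (0.18) and the target Cd44 (0.73) were higher. Lower without that limit were 2 ligands, 8 receptors, 3 inhibitors and 9 transducers and targets. On average, 13 ligands, 4 receptors, 12 inhibitors and 5 transducers and targets lay under 5.

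In the Notch family, which drives basal cells into differentiation, the ligand Dll1 was at 4.4, 4.24, 4.43 and 4.34 in HGPS, against 7.34, 7.51, 6.97 and 7.34 in wild-type keratinocytes. It was 7.66-fold lower, and all 14 of its probe sets passed. The ligand Jag2 (-1.77) and the receptor Notch1 (-1.02) fell too, 3 of 9 measured members, with none higher. Bmp2 (-2.93) and Bmp4 (-1.67) fell among 9 bone morphogenetic proteins, whose median was 0.07, and Bmp7 differed by 0.87 (adjusted p = 0.00221). Of 25 fibroblast growth factors and receptors, Fgfr2, the receptor of keratinocyte growth factor, was 4.87-fold lower, and Fgfr1 (-1.15) and Fgf18 (-1.88) fell, while the median of the 25 was 0.07. The axon guidance ligands Sema3d (-3.25) and Sema3c (-2.77) fell among 6 class 3 semaphorins, and all 20 probe sets of Sema3d passed.

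Hair follicle stem cell genes had 5 of 17 lower and 1 higher, with a median of -0.84. Cd34, a marker of the mouse bulge, was at 4.81, 5.02, 4.86 and 5.46 in HGPS, against 7.57, 7.47, 7.31 and 7.24 in wild-type keratinocytes. Lgr5, Fgf18, Postn and Lhx2 (-1.12) fell as well, while Gli1, a target of Hedgehog signalling, rose by 1.14. The follicle markers Sox9 (-0.18) and Runx1 (-0.09) did not pass. None of 26 anagen hair shaft and root sheath genes passed the limits, and 16 of them averaged under 5. Without the size limit, 1 of the 26 was higher and 2 lower. Their summed linear signal was 1865 to 2125 in HGPS and 2685 to 3098 in wild-type keratinocytes. None of 19 sebaceous gland genes passed both limits. Their median was 0.42, and without the size limit 5 were higher and 1 lower.

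Several clock genes fell. Of 16 circadian genes, 4 fell, none rose, and the median was -0.67. They were the output factors Hlf (-2.06) and Dbp (-1.56), the receptor Nr1d2 (-1.43) and the period gene Per1 (-1.07). Hlf was at 5.49, 5.83, 6.0 and 5.31 in HGPS, against 7.84, 7.58, 7.64 and 7.81 in wild-type keratinocytes. The core factors Clock (0.00) and Arntl (-0.21) did not pass. The E-box CACGTG, which Clock and Arntl bind, stood before 4 of the 14 clock genes with a promoter entry. Among genes with an entry, 8.54% of all genes tested and 11.9% of those called lower held it. It was in 6.02% of all promoters. Of the 4 genes that fell, only Per1 held it, 166 bases before 1 of its starts.
Per1, chr11:69098768-69098803, plus strand: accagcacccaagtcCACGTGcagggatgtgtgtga

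Metallothioneins, which bind zinc and copper, fell in 3 of 4 genes. Mt1 was at 8.0, 8.5, 8.65 and 8.16 in HGPS, against 10.51, 10.43, 10.61 and 10.74 in wild-type keratinocytes. Mt4, the form of stratified epithelia, was 9.69-fold lower, and Mt2 fell by 1.99. Of 24 genes of oxidative stress and glutathione, Slc7a11 and Gsto1 (1.01) rose and none fell, and the Nrf2 targets Nqo1 (0.04) and Hmox1 (-0.20) did not pass.

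More cell cycle genes were higher than lower, mostly by less than 2-fold. Of 34, Plk1, a mitotic kinase, was the only one past both limits (1.12), and the median of the list was 0.43. Without the size limit, 20 were higher and 4 lower, and 13 of the 34 averaged under 5. The summed linear signal of the list overlapped, with 2860 to 3523 in HGPS and 2976 to 3893 in wild-type keratinocytes. The marker of proliferation Mki67 was at 6.02, 6.28, 5.97 and 4.72 in HGPS, against 5.52, 5.49, 4.86 and 5.34 in wild-type keratinocytes, which overlapped (adjusted p = 0.256). Without HGPS replicate 4 its difference was 0.79 (adjusted p = 0.0167). Of 20 p53 targets and senescence genes, Plk3 rose, and Trp53inp1 (-1.65) and Igfbp3 fell. Cdkn1a, which encodes p21, differed by 0.20 (adjusted p = 0.178), and Cdkn2a, which encodes p16 and Arf, by 0.27. The Cdkn2a difference did not pass with the assumed pairs of mice (adjusted p = 0.0592). Of 41 splicing factors, Ptbp2, a relative of the polypyrimidine tract binding protein Ptbp1, was the only call and was lower (-1.1), while Ptbp1 differed by 0.04. Its call was lost without HGPS replicate 4 (-0.85, adjusted p = 0.0635) or without wild-type replicate 2 (-0.91, adjusted p = 0.0652).

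The arrays carry Lmna, the gene that the transgene adds to. Its 15 probe sets gave a gene level of 9.90, 9.80, 9.60 and 9.72 in HGPS, against 9.53, 9.43, 9.37 and 9.44 in wild-type keratinocytes. The groups did not overlap, and the difference of 0.31 had a two-sided exact permutation p = 0.0286 (n = 4 each), the smallest that 4 against 4 mice can give. With the genotypes exchanged only within pairs of the same replicate number, the exact permutation p was 0.125, the smallest that 4 pairs can give. A single probe set carried most of it (plot of the Lmna probe sets). It was at 8.42, 8.34, 7.14 and 8.24 in HGPS, against 5.17, 4.75, 5.21 and 4.81 in wild-type keratinocytes, a difference of 3.05 (adjusted p = 1.19e-06). At day 24 the same probe set averaged 4.19 in HGPS and 3.41 in wild-type keratinocytes, which did not pass (adjusted p = 0.557). The mean of the other 14 probe sets differed by 0.12 (exact permutation p = 0.114). The transgene is human, and which of its sequence the mouse probes read was not tested, so that the values do not measure its amount.

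**Figure D4:**
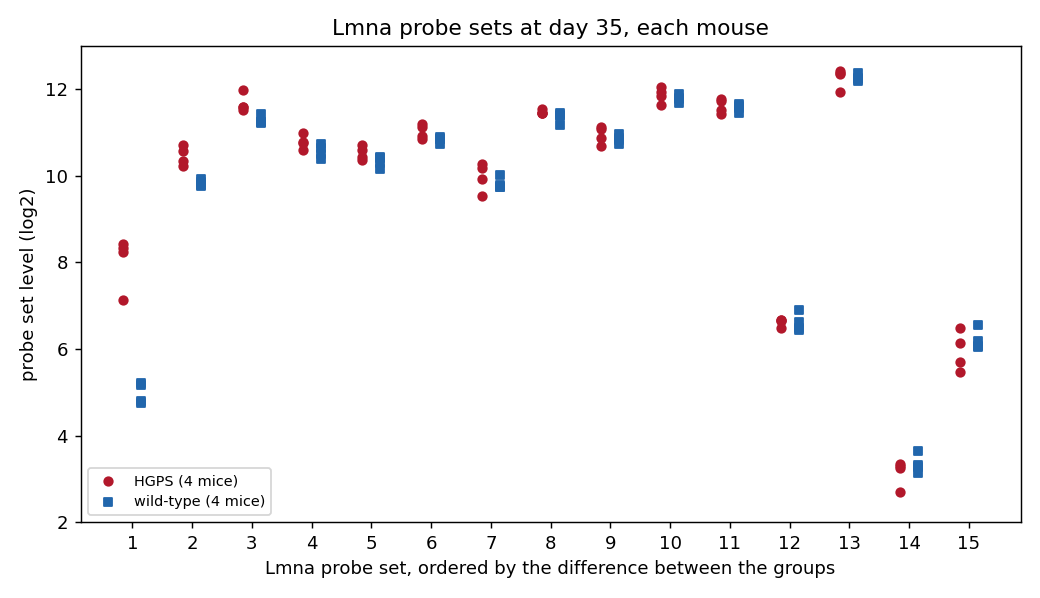
Levels (log2) of the 15 Lmna probe sets at day 35, ordered by the difference between the groups. Circles are the 4 HGPS mice and squares the 4 wild-type mice. The first probe set is higher in all HGPS mice by 3.05 on average, and the next ones by 0.63 and 0.38, while the remaining 12 differ by at most 0.27 in either direction.

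Of 18 genes of the lamina and of prelamin A processing, 1 fell and none rose past both limits. Without the size limit, 6 were higher and 4 lower, and the differences ran from -1.15 to 0.91. Of all genes tested, 35% passed without the size limit. The gene that fell was Unc84a, now called Sun1, an inner nuclear membrane protein that ties the lamina to the cytoskeleton. It was at 7.33, 7.53, 7.38 and 7.46 in HGPS, against 8.59, 8.44, 8.55 and 8.71 in wild-type keratinocytes (-1.15, adjusted p = 1.6e-08). The protease Zmpste24 (-0.12) and the methyltransferase Icmt (-0.01) did not pass. Icmt nevertheless held a probe set that was at 5.71, 5.85, 6.43 and 5.42 in HGPS, against 3.58, 3.61, 2.78 and 3.30 in wild-type keratinocytes.

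At the level of single probe sets, 5230 were higher and 8347 lower of 194293, or 6.99%. A probe set departs when its difference between the genotypes is unlike that of its gene, taken as its value minus the gene's mean in each mouse. Of 177131 probe sets in genes with at least 3, 2119 departed at an adjusted p under 0.05 and at least 2-fold, or 1.2%. They lay in 1014 genes, of which 640 held a single one. Of the 2119, 1366 were in genes that themselves rose or fell. For example, 1 of the 8 probe sets of Prss23 was between 2.79 and 3.07 in HGPS and between 2.78 and 3.23 in wild-type keratinocytes while the gene fell. With dim probe sets left out, 676 departed. In Atp13a2, a lysosomal transporter with 31 probe sets and a gene difference of -0.18, 1 probe set was at 8.90, 9.0, 8.40 and 8.43 in HGPS, against 5.43, 5.38, 4.96 and 5.68 in wild-type keratinocytes. In Atp1b1, a subunit of the sodium pump whose gene level rose by 3.12, 1 of 11 probe sets was between 7.64 and 8.18 in HGPS and between 8.25 and 8.66 in wild-type keratinocytes. In Gyk, glycerol kinase, the gene rose by 3.62 and 1 of 23 probe sets differed by 0.98.

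Most of what differed at day 35 did not differ at day 24. At the earlier age, 8 genes passed an adjusted p under 0.05, or 0.0505% of those tested. The difference between the genotypes differed between the ages for 930 genes at an adjusted p under 0.05 and at least 2-fold, or 5.87%, and 715 of the 836 genes called at day 35 were among them. The 5 largest rises of this kind were Sprr2d, Krt6b, Sprr2e, S100a8 and S100a9, and the 5 largest falls Lce1m, Igfbp3, Prss23, Mrgprb3 and Lce1c. Lce1m, for example, averaged 11.83 in HGPS and 11.79 in wild-type keratinocytes at day 24. Col17a1 averaged 9.99 in HGPS and 9.95 in wild-type keratinocytes at that age, and Il1f8 4.55 in HGPS and 4.81 in wild-type keratinocytes. Mean levels of H19 at day 24 were 3.61 in HGPS and 6.62 in wild-type keratinocytes, and this gene was the largest fall that stood at both ages.

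All 8 genes that passed at day 24 also passed at day 35, with the same direction. H19, a noncoding RNA of an imprinted locus on chromosome 7, was at 3.48, 3.30, 3.23 and 3.35 in HGPS at day 35, against 7.68, 5.90, 6.42 and 5.71 in wild-type keratinocytes. It differed by -3.01 at day 24 and by -3.09 at day 35. Gpc3, an X-linked glypican, differed by -1.28 at day 24 and by -1.01 at day 35. The other 6 lie near each other on chromosome 3, within 17 measured genes of the 755 measured there. Armc1, a mitochondrial armadillo repeat protein, was higher, with 11.01, 10.93, 10.78 and 10.74 in HGPS at day 35, against 7.05, 6.6, 7.29 and 6.81 in wild-type keratinocytes. Its difference was 2.74 at day 24 and 3.93 at day 35. In contrast to it, Mtfr1, Pde7a, Hps3, Tbl1xr1 and Ect2 were lower at both ages.

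The chromosome 3 genes between Armc1 and Ect2 that were not called at both ages were mostly dim (plot of Armc1 and its neighbours). Of the 17 genes of the stretch, 12 averaged under 5 on the log2 scale, and 8 were lower at both ages with an adjusted p under 0.05 at day 35. Hltf, a helicase-like factor, differed by -0.96 at day 24 and by -1.43 at day 35, and Fndc3b, beyond Ect2, by -0.42 at day 24 and by -1.33 at day 35. Apart from the 6 genes named before, no gene of the plot passed at day 24. The rise of Armc1 was uneven over its 8 probe sets, of which 6 passed at day 35. The largest was at 12.30, 12.35, 12.20 and 11.82 in HGPS, against 5.31, 5.42, 5.42 and 5.41 in wild-type keratinocytes, and 2 others differed by -0.47 and by -0.68.

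**Figure D5:**
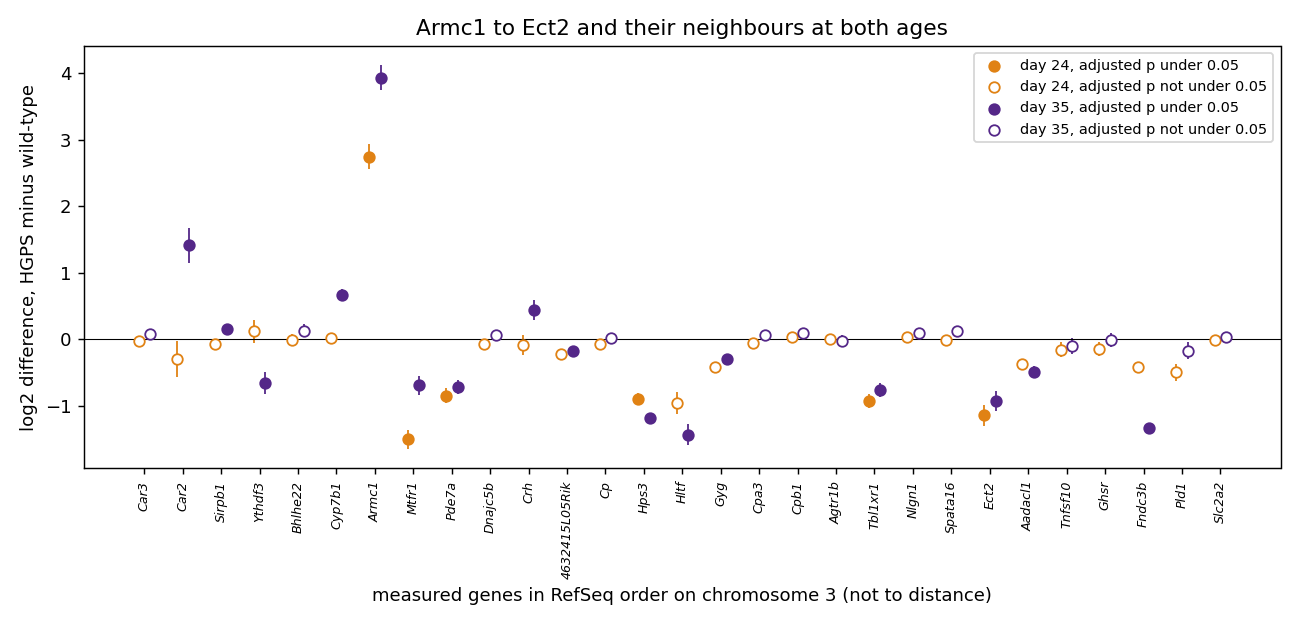
Log2 difference between HGPS and wild-type keratinocytes at day 24 (orange) and day 35 (purple) for 29 measured genes in RefSeq order on chromosome 3. Bars are standard errors and filled points have an adjusted p under 0.05. Armc1 is higher and Mtfr1, Pde7a, Hps3, Tbl1xr1 and Ect2 are lower at both ages.

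Markers of other cell types were mostly near the bottom of the scale. Of 12 lists, those of endothelial, mast, macrophage, fat, muscle and red cell markers had no call in either direction. The neutrophil list had 9 genes, all under 5 on average, and 1 rise, Il8rb, the receptor of Cxcl2. It was at 6.94, 5.83, 7.69 and 7.23 in HGPS, against 3.39, 3.09, 3.15 and 3.20 in wild-type keratinocytes. The granule genes Mpo, Ltf and Ngp differed by -0.03, 0.07 and 0.03 at levels under 4. Without the size limit, 2 of the 9 neutrophil markers, Il8rb included, were higher and 1 was lower. Cd207, langerin, the marker of Langerhans cells, was at 6.25, 5.67, 5.28 and 5.67 in HGPS, against 7.25, 7.31, 6.44 and 6.85 in wild-type keratinocytes (-1.25, adjusted p = 0.00351). Ccr7, the receptor with which dendritic cells leave for the lymph node, rose by 1.13. Below 2-fold, Mfge8 (0.96), Ly75 (0.43), Itgax (0.36) and Flt3 (0.18) were higher at an adjusted p under 0.05. The MHC class II genes Cd74 and H2-Ab1 did not pass (-0.11 and -0.05). Of 8 T cell markers, Thy1, which fibroblasts also make, fell by 1.1. Cd3e (-0.71) and Cd3g (-0.64) did not pass (adjusted p = 0.0521 and 0.0636), and did with the assumed pairs of mice (adjusted p = 0.032 and 0.0283). The other members did not share that direction, with Cd4 (0.38, adjusted p = 0.00187) and Cd8a (0.16, adjusted p = 0.0451) higher at low levels and Cd3d (0.02), Cd2 (0.00) and Cd247 (-0.12) not past the test. The summed linear signal of T cell markers was 972 to 1343 in HGPS and 1325 to 2508 in wild-type keratinocytes. Pmp22 (-2.44), listed as a Schwann cell marker but also made by epithelia, and Mitf (-1.01), from the melanocyte list, fell. Of the other Schwann cell and nerve markers, Ngfr differed by -0.60 (adjusted p = 0.000815), Mbp by -0.30 (adjusted p = 0.0282), S100b by 0.12 and Sox10 by -0.01, all at levels under 5. The summed linear signal of that list was 135 to 192 in HGPS and 423 to 695 in wild-type keratinocytes.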

How the data were processed

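RNA of 16 mice, 1 array each, was hybridised to Affymetrix Mouse Exon 1.0 ST arrays. The authors deposited log2 values of 194293 core probe sets, made in Partek by RMA with a background step that accounts for probe GC content, then quantile normalization and a median-polish summary (annotation on mm9). Depth does not apply to arrays, whose number limits the precision, and the log2 values ran from 2.29 to 15.1. Probe sets naming 1 gene symbol (179614) were averaged to 15830 genes, while 1331 probe sets naming several symbols and 13348 naming none were left out. Of these genes, 13745 matched a current RefSeq symbol, 2046 a synonym and 39 neither, and the array's own symbols are printed.

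Group means of all 4 groups were fitted with limma 3.58.1 (R 4.3.3), and the day 35 genotype difference, the day 24 difference and their difference were tested with Benjamini-Hochberg adjustment over all features. A call needed an adjusted p under 0.05 and an absolute log2 difference of at least 1. The fit was tested on simulated data. Mice come from the titles and ages in the labels, since another label field gives day 24 for the mice titled day 35. Replicates are separate mice.

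At day 35 the same replicate number in both genotypes was taken to pair the mice, which the labels do not state. The pairing was assumed because the deviations of such mice from their group means correlated over genes. These correlations were 0.11, 0.33, 0.13 and 0.12 (other pairs -0.35 to 0.19). HGPS replicate 4 correlated more with wild-type replicate 3 (0.19) than with wild-type replicate 4 (0.12). The reported fit has no block. Named genes were the 10 largest rises and falls, the 5 smallest p-values, list members that passed, genes passing at both ages, the largest changes of the difference between ages, the 6 largest departures in each direction, and Lmna, Krt5 and Krt14. Members and lists were chosen with earlier results of these data known, and gene families by symbol after their values were seen. No gene list was tested. The alternatives were other normalizations, summaries, filters, moderation, covariates and blocks, and leaving out each mouse. Coordinates are GRCm38.p6, and those of the arrays were not used.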

Additional observations from a re-analysis of the deposited data

Results flagged for a closer look

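Among the 205 genes named by the rule or in the text, each of the 410 groups of 4 mice at day 35 was examined for a mouse far from the other 3, and 15 groups had one, where chance gives about 1 in 20. In HGPS keratinocytes, replicate 2 was low for Sprr2i (3.67, others from 5.20), Defb1 (6.03) and Il1f9 (11.2), replicate 3 for Itga3 (6.35), and replicate 4 for Il1r1 (5.66), Krt1 (12.8) and Krt10 (12.7). In wild-type keratinocytes, replicate 1 was high for S100a8 (4.43) and Col6a1 (5.93), replicate 2 was high for Pde7a (6.47) and low for Krt10 (13.1), replicate 3 was high for Mt4 (9.68) and Mt2 (12.9) and low for Dst (6.09), and replicate 4 was high for Trp63 (9.26).

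Of the 25 genes with the largest differences or the smallest p-values or the largest changes between the ages, 24 had a genotype difference that differed between day 35 and day 24, by the interaction term of the limma fit. These genes were picked by the day 35 difference or by this change itself, so the count of 24 is not independent evidence. Of all genes tested, 24.3% passed the interaction test at an adjusted p under 0.05. On the log2 scale, the difference was larger at day 35 by 8.56 for Sprr2d, 7.00 for Krt6b, 6.94 for Sprr2e, 6.69 for S100a8, 6.47 for S100a9, 6.22 for Defb3, 5.88 for Chi3l1, 5.51 for Il1f8, 4.98 for Lcn2, 4.63 for Ear5, 4.31 for Slc7a11, 4.10 for Sprr2b, 4.0 for Pla2g4e and 2.01 for Lpo. It changed by -6.02 for Lce1m, -3.78 for Igfbp3, -3.57 for Prss23, -3.41 for Mrgprb3, -3.14 for Lce1c, -3.0 for Cyr61, -2.64 for Adm, -2.62 for Sema3d, -2.60 for Tspan8 and -2.30 for Mt4. The adjusted p of these 24 was at most 0.0131, and H19 was the exception, with a change of -0.08.

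Probe sets without a single gene symbol enter no gene. Of 14679 such probe sets, 548 passed the test at day 35 (203 higher and 345 lower in HGPS, 3.73%), and the largest difference was 7.42, between means of 12.4 in HGPS and 4.95 in wild-type keratinocytes.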

How the results depend on the processing

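The count of 836 genes ranged from 677 to 1171 over the alternatives, and leaving out 1 mouse gave 752 to 945. The probe set count was 12244 to 15518 and the count of genes whose difference differs between the ages 827 to 1039 when 1 mouse was left out, and departing probe sets numbered 1873 to 2567. Only the removal of dim probe sets moved a count by over 1.5 times, to 676 departing probe sets. The replicate block gave 840 genes, 13828 probe sets, 2058 departing probe sets and 944 genes differing between the ages. Among the 205 named genes it changed 5 calls at an adjusted p of 0.05, those of Cd3e, Cd3g, Col1a2, Col3a1 and Cdkn2a, and no other. Within the mouse ID prefixes, with 2 mice against 2, 853 and 865 genes passed, while Lor (-1.15 and -1.08), Sparc (-1.84 and -1.20) and Ptbp2 (-1.06 and -1.13) passed in neither. No call of a named gene reversed under any alternative, while small differences that were not called, such as those of Krt10, Icmt and Nfkb1, changed sign when 1 mouse was left out. The Lmna difference was 0.267 to 0.366 when 1 mouse was left out, with an exact p no lower than 0.0571, the smallest 3 against 4 mice can give, and 0.119 without its highest probe set. With the replicate block, exchange within pairs left the difference at 0.315 (exact p = 0.125, the smallest 4 pairs can give). The test of genes averaging at least 5 (677) and the last 2 Lmna values were chosen after the data were seen. Of the 15830 genes, 9222 averaged under 5.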

Other observations

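Some kallikreins and serpin B genes were called in the HGPS mice at day 35. Of 19 kallikreins, the serine proteases that shed cornified cells, Klk6 (2.55), Klk9 (2.47), Klk8 (2.42), Klk10 (1.14) and Klk1 (1.08) rose and none fell, and the median of the 19 was 0.18. Klk6 was at 8.05, 7.36, 7.83 and 7.79 in HGPS, against 5.29, 5.29, 5.21 and 5.04 in wild-type keratinocytes. Of 24 serpin B genes, which are intracellular protease inhibitors, Serpinb6c, Serpinb1a, Serpinb11, Serpinb3a and Serpinb3c rose, Serpinb7 fell by 1.82, and the median of the 24 was 0.09. Near-identical copies in this family may share probe signal.

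Transport and metabolism moved in both directions. Of 317 solute carriers, 17 rose and 19 fell, among them the phosphate transporter Slc34a2 (4.25) and the monocarboxylate transporter Slc5a8 (3.26), which rose, and the glucose transporter Slc2a12 (-2.76), which fell. Of 70 cytochromes P450, 8 fell and none rose, with Cyp4b1 at -1.91 and the keratinocyte epoxygenase Cyp2b19 at -1.48. All 3 Nr4a nuclear receptors, which are immediate early genes, fell by 1.35 to 1.74. The complement regulators Cd55 (-2.47) and Cd59a (-2.80) fell, 2 of 4. Of 10 genes of T cell costimulation, the inhibitory ligand Cd274 was at 7.50, 7.12, 7.65 and 7.35 in HGPS, against 4.47, 4.68, 3.77 and 4.17 in wild-type keratinocytes, and Ctla4, Icos and Tnfrsf9 rose too, though each of these 3 averaged under 5. None of 33 Hox genes was called. These families were picked after their values were seen and were not tested.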
